A study of Mus musculus with 2 samples.

Results

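The steroidogenic cytochrome P450s and the proteins that carry electrons to them were described in total RNA-seq of the mouse adrenal gland. The set holds 10 genes, 5 P450s (Cyp11a1, Cyp11b1, Cyp11b2, Cyp21a1 and Cyp17a1) and 5 carriers (Fdx1, Fdxr, Por, Cyb5a and Cyb5r3). They were chosen by symbol from 55450 genes, and all 10 were found. The series has 1 group of 2 libraries, labelled biological replicates 1 and 2, from adrenal tissue of male B6CASTF1/J mice aged 2 months. B6CASTF1/J is an F1 hybrid, no treatment is given, and each library was built from 300 ng of RNA with a stranded kit after depletion of ribosomal RNA. Animal numbers differ between the replicates in the sample descriptions, but the library descriptions and the donor field do not tell them apart, so it is not certain that 2 animals were used. A single group allows no contrast of conditions and no test. An exact paired test on 2 libraries cannot go below p = 0.5, so each difference is set beside the spread between the libraries instead.

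P450s are heme enzymes that need electrons from a partner for each hydroxylation. In mitochondria the flavoprotein ferredoxin reductase (Fdxr) takes electrons from NADPH and passes them to ferredoxin (Fdx1, also called adrenodoxin), which shuttles them to the P450. In the endoplasmic reticulum P450 oxidoreductase (Por) delivers electrons directly, and cytochrome b5 (Cyb5a), which its own reductase (Cyb5r3) can reduce, supports some of these reactions. The adrenal cortex uses both systems in turn, because cholesterol is cleaved in mitochondria, the product is worked on in the endoplasmic reticulum, and the last steps to corticosterone and aldosterone return to mitochondria.

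Summed over all rows, replicate 1 had 36512736 expected counts and replicate 2 had 34454892. An expected count is the number of reads that the quantifier assigns to a gene, and need not be whole. Levels are in TPM, a relative abundance summing to the same total in each library, which divides by length and so allows genes to be compared. Each ± is an SD over the 2 libraries. Cortex markers were present in both libraries, 5 of 5 at 1 TPM or more, with a sum of 9770 TPM in replicate 1 and 10554 TPM in replicate 2. In a whole gland, fewer cells of a type and less RNA per cell cannot be told apart.

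Some of the members share part of their sequence with a close copy, and reads from that part cannot be assigned to either alone. Cyp11b1 and Cyp11b2 lie on the minus strand of chromosome 15 in GRCm38 (mm10), and their coding sequences were 87.1% identical, with 194 mismatches in 1503 aligned bases. These are annotated sequences, and CAST alleles of the hybrid mice were not compared, here or for the pseudogene below. The following stretches, positions 523 to 582 of each coding sequence, are shown because reads that match them can be told apart. Among gap-free stretches of 60 bases within a single exon they differ most. They are exonic sequence of GENCODE M21 transcripts at chr15:74839246-74839305 and chr15:74853815-74853874 on the minus strand, and capitals mark the 24 of 60 bases that differ.
Cyp11b1-201: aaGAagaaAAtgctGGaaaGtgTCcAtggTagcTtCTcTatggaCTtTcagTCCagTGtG
Cyp11b2-201: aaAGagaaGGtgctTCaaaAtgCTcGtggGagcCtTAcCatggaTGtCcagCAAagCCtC

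The next sequence is shown for the opposite reason. It is the longest run that both coding sequences share, 244 bases from position 26 to 269, and a read inside it fits either gene.
Cyp11b1-201 and Cyp11b2-201: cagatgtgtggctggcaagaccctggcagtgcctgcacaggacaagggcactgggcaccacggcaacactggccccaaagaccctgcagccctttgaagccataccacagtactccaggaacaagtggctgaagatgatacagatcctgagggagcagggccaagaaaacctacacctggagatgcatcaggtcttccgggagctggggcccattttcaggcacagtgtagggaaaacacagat

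Cyp21a1 has a pseudogene, Cyp21a2-ps (ENSMUSG00000092471.1, chromosome 17, 34719813 to 34722252), that is closer still. The Cyp21a1-201 coding sequence was 97.5% identical to the pseudogene transcript, with 34 mismatches in 1371 aligned bases and 1 gap of 90 bases in the pseudogene. The alignment also had 2 gaps, of 12 bases in all, in Cyp21a1-201. Among stretches of 60 bases without a gap and within a single exon of Cyp21a1, the one with the most differences holds 5, in capitals below. For Cyp21a1 it lies at chr17:34801796-34801855 on the minus strand.
Cyp21a1-201: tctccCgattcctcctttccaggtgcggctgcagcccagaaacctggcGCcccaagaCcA
Cyp21a2-ps-201: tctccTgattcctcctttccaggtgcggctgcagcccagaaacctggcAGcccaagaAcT

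The share of each leading transcript that another gene repeats letter for letter was counted in windows of 100 bases. It was 11.2% of Cyp11b2 (171 of 1526 windows), 5.58% of Cyp11b1 (171 of 3066) and 5.87% of Cyp21a1 (115 of 1959). Windows of 50 bases gave 19.1% for Cyp11b2, 10.5% for Cyp11b1 and 23.7% for Cyp21a1. The other 7 members had none at either length. The authors' own posterior SD of the count was 49.71 reads in replicate 1 and 53.07 in replicate 2 for both Cyp11b1 and Cyp11b2, which is 0.470% and 0.442% of the Cyp11b2 count and 0.0316% and 0.0300% of the Cyp11b1 count. It was 19.37 and 21.53 reads for Cyp21a1, and 1.09 and 1.31 for Cyp11a1, which had no shared window. Fdx1, Fdxr, Por, Cyb5a, Cyb5r3 and Cyp17a1 had a posterior SD of 0. The levels of Cyp11b1, Cyp11b2 and Cyp21a1 carry an uncertainty from shared sequence, and the posterior SD need not cover it. The read-based quantification described below gave Cyp11b2 1.20 times as many counts in both libraries, a difference far larger than its posterior SD. Genes that overlap a member in the annotation had few reads: the lincRNA Gm17322, on the same strand as Cyp11a1, had 268 and 262 counts, and Tnxa, on the strand opposite Cyp21a1, had 64 and 109 counts.

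**Figure D1:**
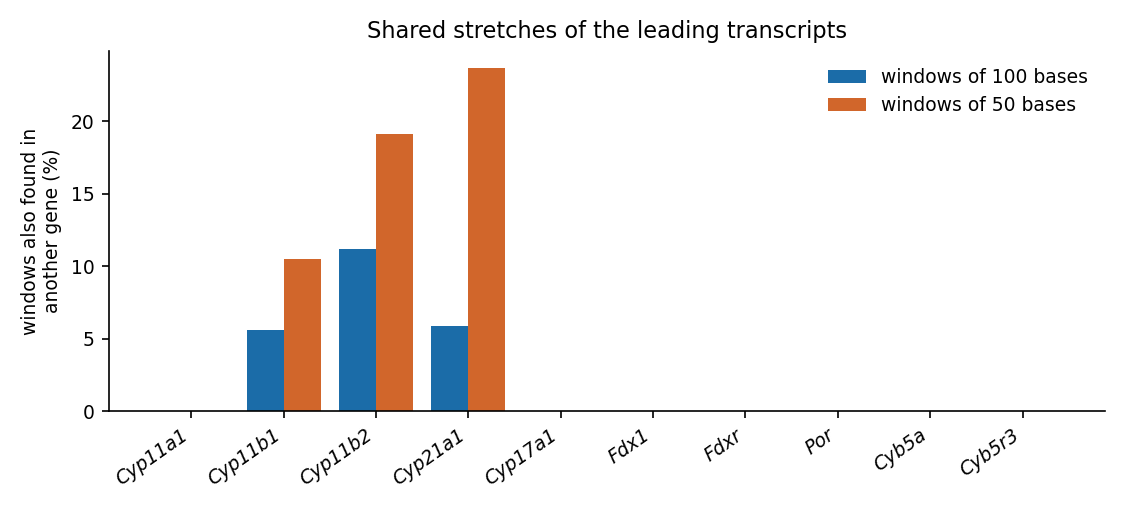
Percent of windows of the leading transcript of each member that are found unchanged in a transcript of another gene, for windows of 50 and 100 bases. Cyp11b1, Cyp11b2 and Cyp21a1 stand between 5.58% and 23.7%, and the other 7 members are at 0.

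Of the mitochondrial P450s, Cyp11a1 and Cyp11b1 were among the most abundant mRNAs of the gland and Cyp11b2 stood lower. Cyp11a1 (ENSMUSG00000032323.13, chromosome 9, 58006411 to 58027023), which cleaves the side chain of cholesterol and starts steroid synthesis, stood at 2148 TPM in replicate 1 and at 2298 TPM in replicate 2 (2223 ± 106 TPM, n = 2). It ranked 3 among 21938 nuclear protein-coding genes, below Hsd3b1 at 3617 TPM and above Eef1a1 at 2040 TPM. Cyp11b1 (ENSMUSG00000075604.5, chromosome 15, 74834125 to 74841643), which makes corticosterone, had 1321 and 1593 TPM (1457 ± 192 TPM) and ranked 7. Cyp11b2 (ENSMUSG00000022589.7, chromosome 15, 74851010 to 74856318), the aldosterone synthase of the outer cortical zone, had 178 and 218 TPM (198 ± 27.8 TPM) and ranked 207. Cyp11b1 thus stood at 7.41 times the level of Cyp11b2 in replicate 1 and 7.32 times in replicate 2. The ratio was far from 1 relative to its SD of 0.0635, although with the read-based quantification described below it was 5.68 ± 0.0395.

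The microsomal P450s split. Cyp21a1 (ENSMUSG00000024365.9, chromosome 17, 34801348 to 34804561), which hydroxylates progesterone on the way to corticosterone, reached 1625 TPM in replicate 1 and 2031 TPM in the other library (1828 ± 287 TPM) and ranked 5. Cyp17a1 (ENSMUSG00000003555.8, chromosome 19, 46667165 to 46673172), whose product is needed for cortisol and sex steroids, had 0.87 and 0.85 TPM (0.86 ± 0.0141 TPM) on 58 and 53 counts, and ranked 12323. The highest marker of Leydig cells, the testis cells that use Cyp17a1, was Insl3 at 1.95 ± 0.141 TPM, with Hsd17b3 at 0.735 and Lhcgr at 0.02 TPM. The pseudogene Cyp21a2-ps was listed at 72.0 and 102 TPM, on 3593 and 4749 counts. That is 4.43% and 5.03% of the TPM of Cyp21a1, with a posterior SD of 19.37 and 21.53 counts. By the read-based quantification the pseudogene had 3956 and 5304 counts.

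Among the carriers, the mitochondrial pair stood above the microsomal ones. Fdx1 (ENSMUSG00000032051.9, chromosome 9, 51943306 to 51963556) was measured at 667 TPM in replicate 1 and 787 TPM in the other library (727 ± 84.8 TPM) and ranked 22, next below the lipoprotein receptor Scarb1 at 734 TPM. Fdxr (ENSMUSG00000018861.8, chromosome 11, 115268024 to 115277050) had 427 and 479 TPM (453 ± 36.9 TPM) and ranked 48. Cyb5a (ENSMUSG00000024646.14, chromosome 18) had 129.2 and 128.7 TPM (128.9 ± 0.368 TPM) and ranked 348. Cyb5r3 (ENSMUSG00000018042.18, chromosome 15, 83153494 to 83172592) had 89.6 and 100.9 TPM (95.3 ± 7.95 TPM) and ranked 490. Por (ENSMUSG00000005514.14, chromosome 5, 135670033 to 135735326), which delivers electrons directly to the microsomal P450s, had 76.6 and 77.4 TPM (77.0 ± 0.573 TPM) and ranked 625.

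From high to low the order was Cyp11a1, Cyp21a1, Cyp11b1, Fdx1, Fdxr, Cyp11b2, Cyb5a, Cyb5r3, Por and Cyp17a1. By alignment it was the same in both libraries, and the ranges of the 2 libraries did not overlap for any of the 9 neighbouring pairs. Cyp21a1 at its lowest had 1625 TPM, against 1593 TPM for Cyp11b1 at its highest. Read-based means gave the same order, but there the ranges of Cyb5r3 (147.5 and 173.9 TPM) and Por (147.4 and 153.5 TPM) overlapped, so these neighbours were not apart beyond their spread.

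**Figure D2:**
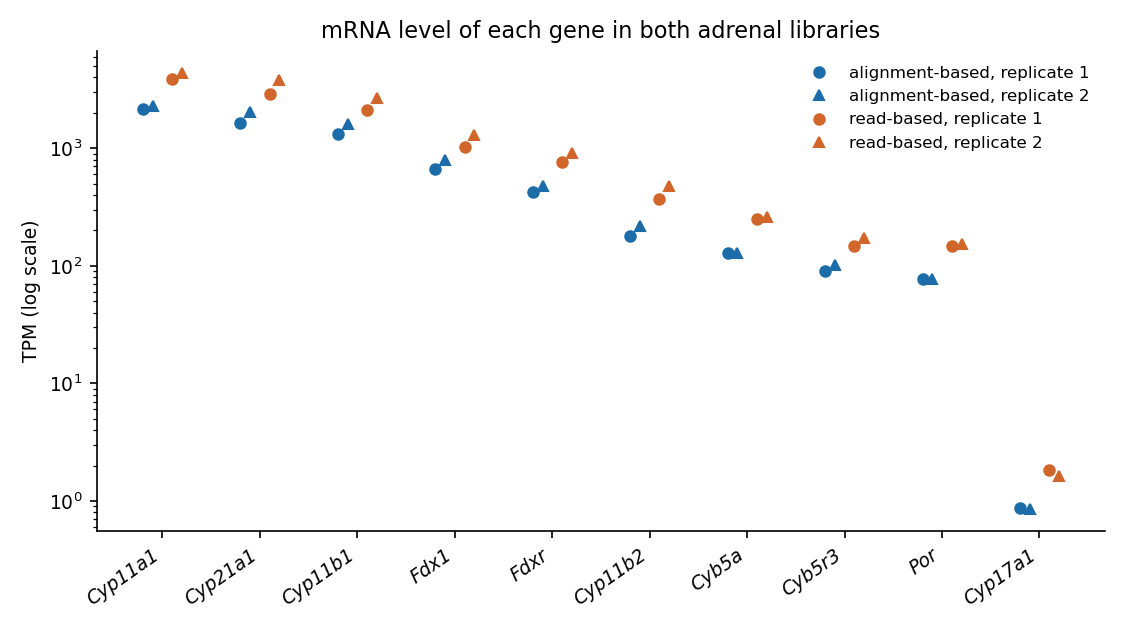
Level of each member in TPM on a log scale, with a point for each library and each quantification. Alignment-based means run from 2223 TPM for Cyp11a1 to 0.86 TPM for Cyp17a1, and read-based points of Cyb5r3 and Por overlap.

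The 5 P450s of the set held most of the P450 mRNA of the gland. They took 91.0% in replicate 1 and 92.7% in replicate 2 of the summed TPM of 100 nuclear protein-coding P450 genes (91.9 ± 1.19%). All 10 members together took 2.24% and 2.53% of the TPM of nuclear protein-coding genes. A further 18 P450 genes reached 1 TPM in both libraries. The highest was Cyp2e1, an enzyme of drug and ethanol metabolism that also receives electrons from Por, at 380 and 339 TPM, which is above Cyp11b2. It was named after its value was seen, as was the next, Cyp4f13, at 16.0 and 19.1 TPM.

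Among the members, the ratio of P450 to carrier mRNA differed between the compartments. The sums leave out other P450s, such as Cyp2e1, at 380 and 339 TPM, which also receives electrons from Por. The 3 mitochondrial P450s summed to 3647 TPM in replicate 1 and 4108 TPM in replicate 2. They stood at 5.47 and 5.22 times the level of Fdx1 (5.34 ± 0.175) and at 8.54 and 8.57 times that of Fdxr (8.56 ± 0.0229). The 2 microsomal P450s summed to 1626 and 2032 TPM and stood at 21.2 and 26.2 times the level of Por (23.7 ± 3.55). In both libraries the microsomal ratio was above both mitochondrial ratios, and the ranges did not overlap. With read-based TPM the microsomal ratio was 22.2 ± 3.69, against 6.02 ± 0.257 for Fdx1 and 8.35 ± 0.000633 for Fdxr. The microsomal ratio is that of Cyp21a1 alone to the same precision, because Cyp17a1 stood at 0.0112 ± 0.000267 of Por. A ratio over the whole gland sums all its cell types and does not give the ratio inside a cortical cell.

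Taken enzyme by enzyme, the ratios ran over a wide range. Cyp11a1 stood at 3.07 ± 0.212 times Fdx1 and 4.91 ± 0.166 times Fdxr. Cyp11b1 stood at 2.00 ± 0.0307 times Fdx1 and 3.21 ± 0.163 times Fdxr, and Cyp11b2 at 0.272 ± 0.00651 of Fdx1 and 0.436 ± 0.0259 of Fdxr. Each mitochondrial P450 except Cyp11b2 thus had more mRNA than either of its carriers. Cyp21a1 stood at 14.2 ± 2.27 times Cyb5a.

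The carriers also had ratios among themselves. Fdx1, the shuttle, stood at 1.56 times Fdxr, its reductase, in replicate 1 and 1.64 times in replicate 2 (1.60 ± 0.0569). Read-based TPM gave 1.39 ± 0.0594. Fdxr stood at 5.88 ± 0.435 times Por, so the first enzyme of the mitochondrial chain had more mRNA than its microsomal counterpart. Cyb5a stood at 1.67 ± 0.0172 times Por and at 1.36 ± 0.117 times Cyb5r3, or 1.60 ± 0.137 times Cyb5r3 with read-based TPM.

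**Figure D3:**
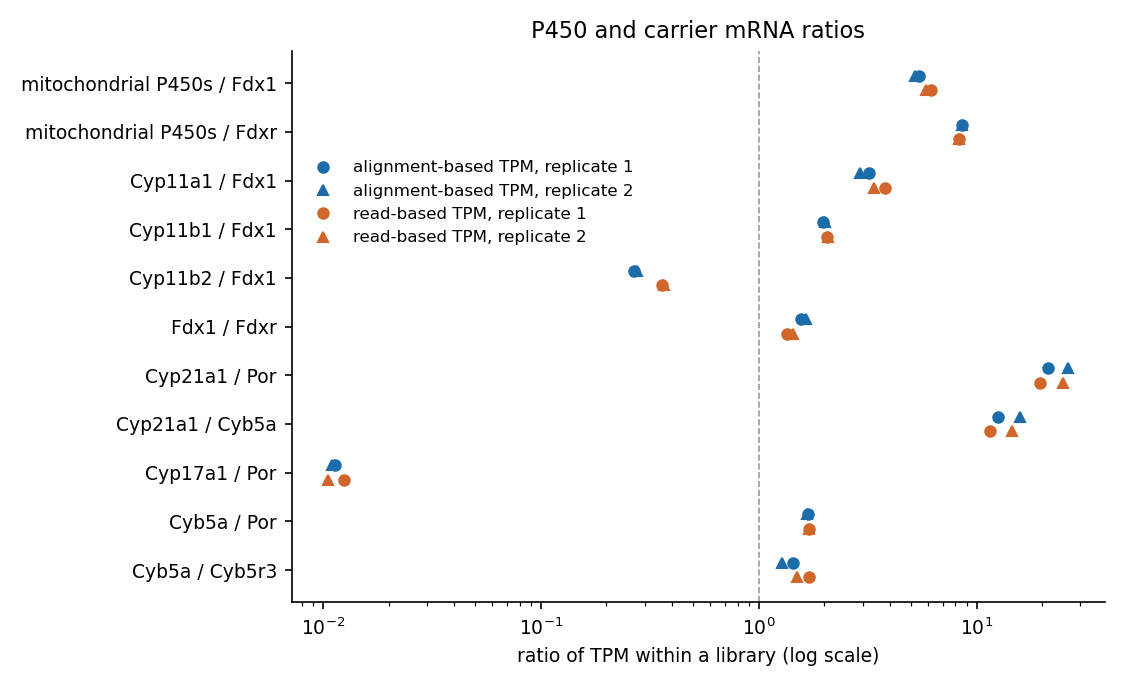
Ratio of TPM within each library on a log scale, with the enzyme or first-named carrier on top, for both libraries and both quantifications; the dashed line marks a ratio of 1. Cyp21a1 over Por, at 21.2 and 26.2 by alignment, lies right of the mitochondrial sums over Fdx1 and Fdxr, and Cyp17a1 over Por lies near 0.0112.

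The members have 40 annotated transcripts. Cyp11b1 and Cyp11b2 have 1 each, and the other 8 genes have more. The leading transcript took 93.6% or more of the gene's TPM for Cyp11a1, Cyp21a1, Fdx1, Fdxr, Cyb5a and Cyp17a1 by alignment. Cyp11a1-201 took 98.5 ± 0.431%, Cyp21a1-201 took 97.2 ± 1.05%, Fdx1-201 took 95.3 ± 0.438% and Fdxr-201 took 93.6 ± 0.994%. Read-based shares of those 4 were 98.9%, 98.7%, 94.2% and 93.4%. The median leading share of 5504 protein-coding genes at 10 TPM or more with several transcripts was 66.4%. Of the 40 transcripts, 16 reached 5% by either quantification.

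Fdx1 was the mitochondrial member with a second coding transcript near 5%. Fdx1-202 took 3.73% in replicate 1 and 4.65% in replicate 2 by alignment (4.19 ± 0.652%), with 24.9 and 36.6 TPM. Its read-based share was 5.19 ± 0.655%, with 48.5 and 73.0 read-based TPM. It shares 452 coding bases with Fdx1-201 and then ends in a different last exon, so its coding sequence is 498 bases against 564. The coding ends below are shown because they are where the encoded proteins part, with 12 shared bases in lower case and the bases of each transcript's own last exon in capitals. They lie on the minus strand of chromosome 9, the capitals at chr9:51943538-51943649 for Fdx1-201 and at chr9:51947152-51947197 for Fdx1-202.
Fdx1-201: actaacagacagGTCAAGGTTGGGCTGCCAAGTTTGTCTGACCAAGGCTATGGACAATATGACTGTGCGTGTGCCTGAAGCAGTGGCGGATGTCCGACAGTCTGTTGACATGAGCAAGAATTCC
Fdx1-202: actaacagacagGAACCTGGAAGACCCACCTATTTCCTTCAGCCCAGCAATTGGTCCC

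Cyb5r3 was the member whose leading transcript depended on the quantification. By alignment Cyb5r3-203 took 81.4% in replicate 1 and 81.7% in replicate 2 (81.6 ± 0.176%) and Cyb5r3-201 took 18.2% and 17.9%. Read-based, Cyb5r3-203 took 36.5% and 36.7% (36.6 ± 0.194%) and Cyb5r3-201 took 62.9 ± 0.199%. The libraries differed by under 1 percentage point within each method. Across the 5504 genes the leading transcript differed between the methods in 26.2%, and among the 8 members with several transcripts it differed in 1. Cyb5r3-201 starts at 83172592 and Cyb5r3-203 at 83170177 on the minus strand. Of the exon bases of Cyb5r3-203, 41 lie in no other Cyb5r3 transcript, against 481 of Cyb5r3-201, with splice junctions not counted. Whether this bears on the difference between the methods was not tested. The transcripts encode proteins with different starts. In rat and human, membrane-bound and soluble forms of this reductase are known that differ at the same end. The coding starts are shown because this is the difference at stake: capitals mark the 69 bases, 23 codons in frame, that the coding sequence of Cyb5r3-201 has ahead of that of Cyb5r3-203. In the genome the shown part of Cyb5r3-201 has its outer ends at 83166141 and 83172132 on chromosome 15, with an intron inside.
Cyb5r3-201: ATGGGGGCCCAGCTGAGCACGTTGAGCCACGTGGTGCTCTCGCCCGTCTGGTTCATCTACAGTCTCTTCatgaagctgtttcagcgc
Cyb5r3-203: atgaagctgtttcagcgc

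Por and Cyb5a kept their leading transcript but not its share. Por-201 took 89.0 ± 1.5% by alignment and 81.2 ± 1.65% read-based. Por-208, a short coding transcript from an upstream start, was listed at 0 by alignment and took 14.1% in replicate 1 and 8.58% in replicate 2 read-based (11.3 ± 3.90%). Cyb5a-204 took 96.1 ± 0.527% by alignment and 70.0 ± 1.56% read-based. Cyb5a-205 took 1.73% and 0% by alignment and 29.7% and 26.7% read-based. The forms of Cyb5a are therefore not settled by these tables. For Cyp17a1 the alignment put all counts on Cyp17a1-201, while the read-based shares of Cyp17a1-201 were 46.8% and 85.8%, on 34 and 49 estimated counts. Cyp17a1-204 took 21.3 ± 10.1% and Cyp17a1-202 took 12.4 ± 17.5% of those few reads.

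**Figure D4:**
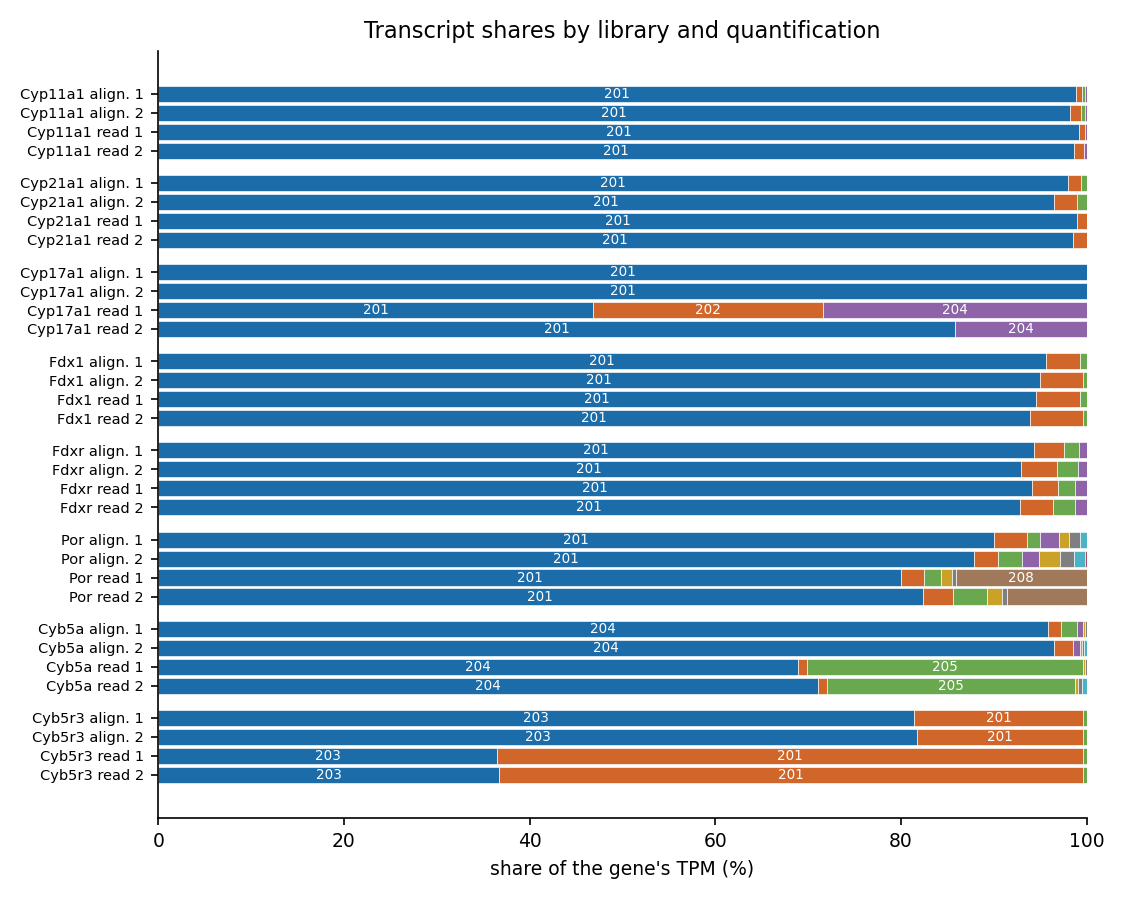
Percent of the gene's TPM taken by each transcript, for the 8 members with more than 1 transcript, in each library by alignment (align.) and read-based (read); numbers in the bars are transcript suffixes and the colours separate transcripts within a gene. Cyb5r3-203 takes 81.6% by alignment and 36.6% read-based, whereas Cyp11a1-201 takes 98.5% and 98.9%.

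Retained-intron transcripts were looked at after the shares had been seen. Their summed share of the gene's TPM was 0.660% in replicate 1 and 1.22% in replicate 2 for Cyp11a1, 1.41% and 2.42% for Cyp21a1, 4.48% and 6.64% for Por, and 2.07% and 2.75% for Cyb5a. It was lower in replicate 1 in 4 of 4 members with such a share, and in 67.7% of 3865 protein-coding genes at 10 TPM or more. Over those genes the median share was 5.11% in replicate 1 and 6.25% in replicate 2. Read-based, it was lower in replicate 1 in 4 of 5 members, against 67.2% of 3790 genes. The exception was Cyp17a1, at 24.7% and 0%.

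Between the libraries the members differed about as much as genes at 1000 or more counts. With a fold measured as replicate 1 over replicate 2, none of the 9 members that averaged at least 100 counts was past 2-fold. Over 12425 genes at this depth, 56 (0.451%) were past 2-fold, 0.225% higher and 0.225% lower in replicate 1. The members' log2 ratios ran from -0.21 to 0.10 with a median of -0.08, beside a median of 0.0045 over all these genes. Without regard to sign, the median log2 ratio was 0.097 for the members, against 0.088 for the genes at 1000 or more counts. The central 95% of the 5504 genes at 1000 or more counts ran from -0.36 to 0.47, and each of the 9 members lay inside that range. It is not a range of matched depth, since members reached up to 176720 counts, for Cyp11b1 in replicate 2. The interval for counting error left out 0 for 8 of the 9 members, 6 below and 2 above, against 38.6% of the genes, of which 18.8% lay below and 19.8% above. The members have more counts than most genes, and their intervals are narrower for it. No molecular identifiers were read, so reads may repeat a molecule and the intervals cover counting error only.

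By gene, 4 members were lower in replicate 1 by more than the rest. Cyp21a1 had 121924 expected counts in replicate 1 and 140334 in replicate 2, which gives -0.21 on the log2 scale (interval -0.22 to -0.20 at 95%). Cyp11b2 had 10571 and 12013 counts, a log2 ratio of -0.19 (-0.23 to -0.16). Cyp11b1 and Fdx1 had log2 ratios of -0.18 each. Cyp11b1, Cyp11b2 and Fdx1 thus shifted by nearly the same amount, and this is seen in their stable ratios to each other. Cyb5r3 was at -0.08, Fdxr at -0.06 and Cyp11a1 at -0.01, the last with an interval that holds 0 (-0.02 to 0.00063). Por and Cyb5a were at 0.10 each, with intervals of 0.05 to 0.15 for Por and 0.03 to 0.16 for Cyb5a. These values use TMM scaling. With total-count scaling Por and Cyb5a were at 0.02 each, and with deposited TPM Por was at -0.02 and Cyb5a at 0.01, all within the counting error of 0. Cyp11a1 moved the other way, to -0.08 with total-count scaling and -0.10 with deposited TPM, which is past its counting error. The pseudogene Cyp21a2-ps stood at -0.41 (-0.48 to -0.35), further from 0 than Cyp21a1. Cyp17a1, with too few counts for the comparison, was at 0.12 (-0.44 to 0.69).

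Markers of the medulla, which is part of the gland, and of other tissues also differed between the libraries. Brown fat markers summed to 1388 TPM in replicate 1 and 701 TPM in replicate 2, with 4 of 4 intervals above 0, and Ucp1, Cidea and Cox8b past 2-fold. White fat markers summed to 3226 and 2548 TPM, with 5 of 5 above 0 and Lep past 2-fold. Red cell markers summed to 1948 and 1174 TPM and medulla markers to 2107 and 1852 TPM, with 5 of 5 above 0 in each list. No marker of these lists was at 0. The cortex markers had 2 of 5 intervals above 0 and 2 below, with a median log2 ratio of -0.01. Other markers of the Cyp11b2 zone (glomerulosa) had log2 ratios of 0.07 for Agtr1a and -0.01 for Dab2, beside -0.19 for Cyp11b2. Other markers of the Cyp11b1 zone (fasciculata) had 0.09 for Akr1b7 and 0.10 for Mc2r, also a cortex marker, beside -0.18 for Cyp11b1. Liver markers summed to 3.12 and 7.66 TPM, and of them Alb was past 2-fold lower in replicate 1. Kidney markers summed to 1.79 and 4.90 TPM. In the X-zone list, for the inner layer of the young mouse cortex, Thrsp stood at 156 TPM, and Akr1c18 and Pik3c2g were below 1 TPM. The part of these tissues and cell types in the members' ratios between libraries was not tested.

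**Figure D5:**
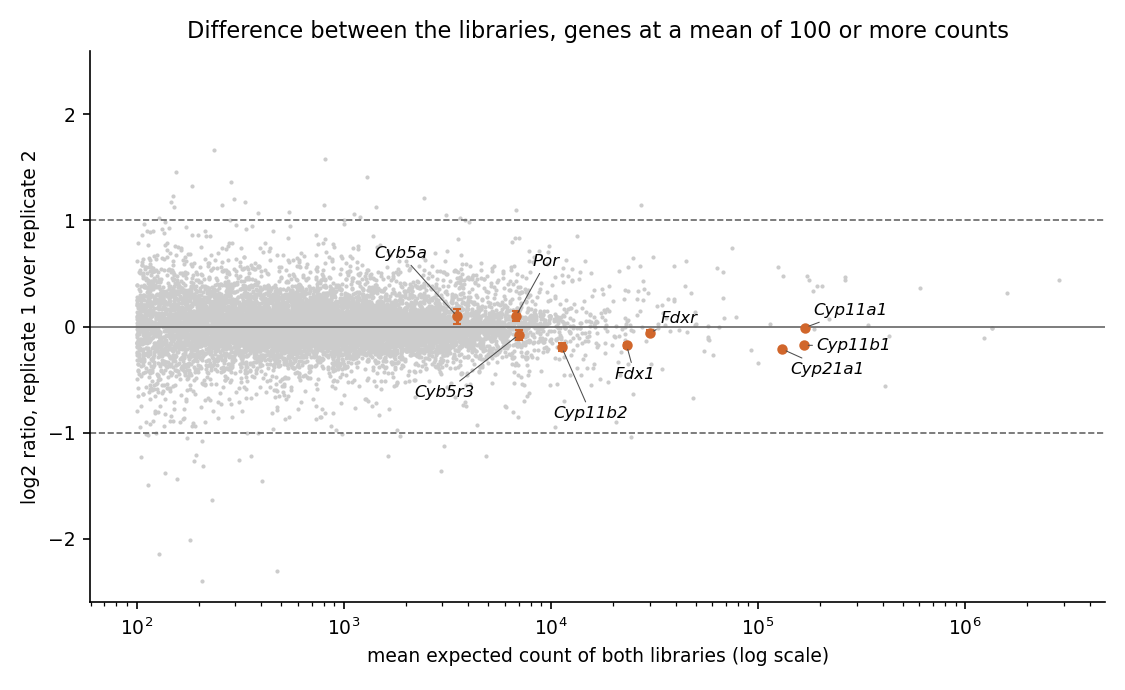
Log2 ratio of replicate 1 over replicate 2 against the mean expected count (log scale) for genes at 100 or more counts (grey) and the 9 members in that range (orange, bars are 95% counting intervals); dashed lines mark 2-fold. The members lie between -0.21 and 0.10, inside the cloud of other genes.

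The quantifications put the members at different TPM. Read-based TPM were higher for all 10 in both libraries, at 4140 ± 357 for Cyp11a1, 3349 ± 651 for Cyp21a1, 2392 ± 403 for Cyp11b1, 1159 ± 188 for Fdx1 and 833 ± 99.9 for Fdxr. Cyp11b2 had 421 ± 73.9, Cyb5a 256 ± 7.94, Cyb5r3 161 ± 18.7, Por 150.5 ± 4.30 and Cyp17a1 1.73 ± 0.152 read-based TPM. As a log2 ratio of alignment-based over read-based TPM, the median gene was at -0.86 in replicate 1 and -0.94 in replicate 2. Cyp11b2, at -1.05 and -1.12, was the 1 member past 2-fold in both libraries, where 26.2% of 13126 protein-coding genes were. After both tables were rescaled to nuclear protein-coding genes, no member was past 2-fold, against 2.16% of 13914 genes. On that scale Cyp11b2 was at -0.08 in both libraries, Fdx1 at 0.35 and 0.33, and Cyp11b1 at 0.30 and 0.29, beside medians of 0.12 and 0.11. In counts, the read-based table gave Cyp11b2 1.20 times and Cyp11a1 1.10 times the reads of the alignment-based one in both libraries. It gave Fdx1 0.793 and 0.807 times as many, and Cyb5a 0.838 times.

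Other genes of the same electron chains were set beside the members. Of 10 relatives of the carriers, 9 reached 1 TPM in both libraries. The same number averaged at least 100 counts, and none of these was past 2-fold between the libraries. The list was led by Pgrmc1, a heme-binding partner of P450s, at 142 ± 14.3 TPM, by Cyb5b, the cytochrome b5 of the outer mitochondrial membrane, at 109.9 ± 1.77 TPM, and by Pgrmc2 at 16.6 ± 0.368 TPM. Fdx1l, the ferredoxin of iron-sulfur cluster assembly, stood at 14.1 ± 0.0778 TPM, which is 2.11% of Fdx1 in replicate 1 and 1.80% in replicate 2. Of 3 other mitochondrial P450s only Cyp27a1, the sterol hydroxylase, reached 1 TPM, at 4.71 ± 0.198 TPM, and Cyp27b1 and Cyp24a1 of vitamin D metabolism stood at 0.075 and 0.015 TPM. Of 8 other microsomal sterol and steroid P450s, 3 reached 1 TPM in both libraries, and 3 averaged at least 100 counts, none of them past 2-fold. Those at 1 TPM or more were Cyp51 of cholesterol synthesis at 14.6 ± 4.36 TPM, Cyp1b1 at 13.3 ± 0.262 TPM and Cyp7b1 at 1.81 ± 0.0283 TPM.

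Por and cytochrome b5 also serve enzymes that are not P450s. Of 10 such genes, 9 reached 1 TPM in both libraries and none was past 2-fold between them. The fatty acid desaturases led, with Fads2 at 501 ± 21.9 TPM, Fads1 at 384 ± 36.5 TPM and Scd1 at 288 ± 7.06 TPM. Each of these 3 stood above Cyb5a at 128.9 TPM, and above Cyb5r3 and Por.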

How the data were processed

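For each library the authors deposited alignment-based gene and transcript tables with expected counts, TPM and FPKM, per the file headers, together with a read-based transcript table of estimated counts and TPM. FPKM were not used. The deposited percent of each gene assigned to an isoform differed from shares computed here from TPM by at most 0.00969 percentage points. Build mm10 and annotation GENCODE M21 are those of the deposited file notes; tool names and versions are not given in the sources used here. TPM divides by effective length, which was the length minus 99 bases in the alignment-based tables and minus 325.1 and 326.1 bases in the read-based ones. Read-based values were summed per gene. Whether CAST-allele reads were assigned as well as the others was not tested.

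Members were matched by symbol and gene ID. Library ratios are log2 of expected count plus 0.5 over TMM-scaled library size (edgeR 4.0.16, on counts rounded to whole numbers, genes at no fewer than 10 counts in each library), with exact Clopper-Pearson counting intervals; no test was run. DESeq2 1.42.0 size factors were an alternative. The ratio procedure was run on simulated data in which the changed genes differed far more than any member did. That run does not bear on differences as small as those of the members. Sequences came from GENCODE M21 transcripts, aligned with Biopython 1.88. Named genes were all members, genes of a list past 2-fold at 100 or more counts, close copies, and transcripts at 5% or more. The 3 highest were named for the lists of electron-chain genes, Leydig cells, brown fat and the cortical zones. Other marker lists are given by sums and counts, apart from genes past 2-fold. Porcn, matched by the letters of its symbol alone, is unrelated to Por and had 2.40 TPM. Members and lists were chosen with earlier results of these data known.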

Additional observations from a re-analysis of the deposited data

How the results depend on the processing

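No paired analysis was possible because the series has 1 group. The levels of all 10 members moved with the quantification, as given above, and with the TPM denominator: rescaled to nuclear protein-coding genes, Cyp11a1 stood at 7387 TPM, against 2223 as deposited, and Por at 256 TPM, against 77.0. The sum of mitochondrial P450s over Fdx1 was 6.02 read-based and 5.72 from counts per full length, and over Fdxr it was 8.35, 8.66 and, with protein-coding transcripts alone, 9.09. Fdx1 over Fdxr was 1.39, 1.52 and 1.70 in the same order, and Cyp11b1 over Cyp11b2 was 5.68 read-based and 7.60 from counts per full length. The share of Cyb5r3-203 was 81.6% by alignment and 36.6% read-based. Genes over 2-fold apart numbered 243 at a minimum mean of 20 counts and 21 at 500, against 56 at 100. Members past 2-fold between the quantifications numbered 0 after rescaling, against 1. The sum of microsomal P450s over Por was 22.2 read-based, 23.5 from counts per full length and 24.5 with protein-coding transcripts alone, against 23.7. Its SD between the libraries, 3.55, was wide, so moves smaller than that SD show little. Across the 7 alternatives for the library ratios the largest absolute log2 ratio of a member was 0.32, for Cyp21a1 from deposited TPM, and 6 to 8 of the 10 lay below 0. Leaving out either library gave the values of the other, with a microsomal ratio to Por of 21.2 to 26.2. Depth limits Cyp17a1, with under 100 counts in each library.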
